A study of Homo sapiens with 10 samples.

Results

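The genes described here are 35 aminoacyl-tRNA synthetase genes, 19 of the cytosolic and 16 of the mitochondrial set, taken by symbol from the 57353 gene symbols in the count table. All 35 symbols were found as listed, and all 35 were among the 17230 genes with enough counts to test. RNA of LNCaP-C4-2 cells, a castration-resistant line of prostate cancer, was sequenced in 10 samples. Carnitine palmitoyltransferase 1A (CPT1A), the mitochondrial enzyme that makes acyl-carnitines from long-chain fatty acids, was lowered or raised by lentivirus, and the comparisons ask how the transcriptome follows.

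The NT cells (n = 2) carried a non-targeting shRNA and the KD cells (n = 3) an shRNA against CPT1A, and both were selected with puromycin at 1 µg/ml. The EV cells (n = 2) carried an empty virus and the OE cells (n = 3) a CPT1A cDNA virus, and both were selected with blasticidin at 5 µg/ml. The growth medium, with non-essential amino acids and serum, was the same for all, and the study's methods also name insulin in it. One shRNA against CPT1A was used, the labels name no second line of any of the 4 kinds, and nothing says that samples of a line came from separate transductions or cultures. The p-values below therefore measure only the spread between these samples, which may be technical. The controls differ in virus and in selection drug, so these cannot be told apart in EV versus NT.

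Aminoacyl-tRNA synthetases join each amino acid to its tRNAs and so supply the charged tRNAs that ribosomes use. The cytosol and the mitochondrion have separate sets, nearly all encoded by separate nuclear genes, and the mitochondrial enzymes (symbols ending in 2) are imported to serve the few proteins translated inside the organelle. GARS and KARS each serve both compartments from one gene, and EPRS is a fused enzyme for glutamate and proline. Several cytosolic enzymes sit in a multisynthetase complex held by the scaffold proteins AIMP1, AIMP2 and EEF1E1. Uncharged tRNAs are sensed by the kinase GCN2 (EIF2AK4), which leads to translation of the transcription factor ATF4, and ATF4 with its partners binds the element TGATGNAA, known as CARE, in many amino acid and synthetase genes.

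Depth was 23555205 to 28615770 counts per sample. Levels are given in CPM, the counts of a gene scaled to a common library size with TMM, and fold changes come from edgeR's quasi-likelihood test over all 10 samples. A gene was called at a Benjamini-Hochberg adjusted p under 0.0001, the limit the study used. CPT1A itself was 266 and 262 CPM in NT, 81.3, 86.4 and 86.2 CPM in KD, 326 and 318 CPM in EV and 870, 914 and 861 CPM in OE, which fits the labels of both arms. Of the prostate luminal markers all 9 were measured, with a summed level of 6360 to 12700 CPM, lowest in NT and highest in OE. The 3 leukocyte markers summed to at most 0.34 CPM and the 3 basal markers to at most 1.85 CPM, the latter at 1.49 to 1.85 CPM in KD and 0.377 to 0.477 CPM in NT. The 3 fibroblast markers summed to 16.1 to 17.2 CPM in KD and 8.85 to 12.9 CPM elsewhere. Of these COL1A1 was 8.46 to 15.6 CPM, COL3A1 at most 2.07 CPM and DCN at most 0.0383 CPM. The 3 endothelial markers summed to 6.28 to 9.46 CPM, nearly all of it VWF, with PECAM1 at 0 CPM and CDH5 at most 0.0995 CPM. The part of these marker levels in the results below was not tested.

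Promoter sequence is shown first, and whether the CARE letters have a part in any change described below was not tested. RefSeq promoter windows (GRCh38.p14, 250 bases before to 50 after each gene start) were matched for 30 of the 35 genes, in 39 windows; LARS, VARS, YARS, AARS2 and VARS2 had no window. Both strands were searched for TGATGNAA, which reads TTNCATCA on the other strand. The letters were found in 7 of 16 cytosolic and 1 of 14 mitochondrial genes, counting a gene once whatever its number of windows. Counted the same way, they were in 1217 of the 27305 genes with a window (4.46%), and per window in 1270 of 35116 of the same length (3.62%). The stricter form TGATGCAA was in 6 of 16 cytosolic genes, in 0 of 14 mitochondrial genes in 295 of all genes (1.08%) and in 304 of all windows (0.866%). Each matching stretch, of the 7 cytosolic genes and then of YARS2, is printed 5′ to 3′ on the strand of its gene, with the matched letters in capitals.
AARS (chr16:70289675-70289704, minus strand): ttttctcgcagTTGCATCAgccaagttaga
CARS (chr11:3057418-3057436, minus strand): cggggcggcggTTGCATCA
GARS (chr7:30594834-30594863, plus strand): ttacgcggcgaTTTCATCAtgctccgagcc
IARS (chr9:92293698-92293721, minus strand): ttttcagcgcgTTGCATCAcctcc
MARS (chr12:57488053-57488071, plus strand): gccggttccggTTGCATCA
NARS (chr18:57621815-57621833, minus strand): tctacgctctcTGATGCAA
TARS (chr5:33440956-33440974, plus strand): gcgcctttcgaTTGCATCA
YARS2 (chr12:32756076-32756105, minus strand): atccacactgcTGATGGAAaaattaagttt

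In 6 of the 7 cytosolic genes the letters are TTGCATCA or its reverse TGATGCAA, and GARS has TTTCATCA. The mitochondrial match, in YARS2, is TGATGGAA and lies 197 to 190 bases before the start. A match is a description of these letters in these windows only.

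Per length of the canonical transcript, most cytosolic mRNAs stood above the mitochondrial ones. Over all 10 samples the cytosolic genes ranged from 14.02 to 182 CPM per kb (median 95.49) and the mitochondrial genes from 2.531 to 50.51 CPM per kb (median 12.41). SARS, GARS and AARS, for serine, glycine and alanine, were at 182, 181 and 177 CPM per kb, and their ranges over samples overlapped. IARS2, for isoleucine, was the highest mitochondrial gene, with 50.5 CPM per kb, above CARS (49.96), HARS (46.4) and RARS (44.6). Its range over samples overlapped those of CARS, HARS and RARS. FARSB, a subunit of the phenylalanine enzyme, was at 14.0 CPM per kb, below CARS2 (24.2), EARS2 (19.3), TARS2 (18.5) and HARS2 (15.2) as well as IARS2. Its range overlapped those of EARS2, TARS2 and HARS2. The other cytosolic genes were all above the other mitochondrial genes. The partner subunit of FARSB, FARSA, was at 112 CPM per kb. RARS2 and SARS2 were lowest, at 3.48 and 2.53 CPM per kb.

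**Figure D1:**
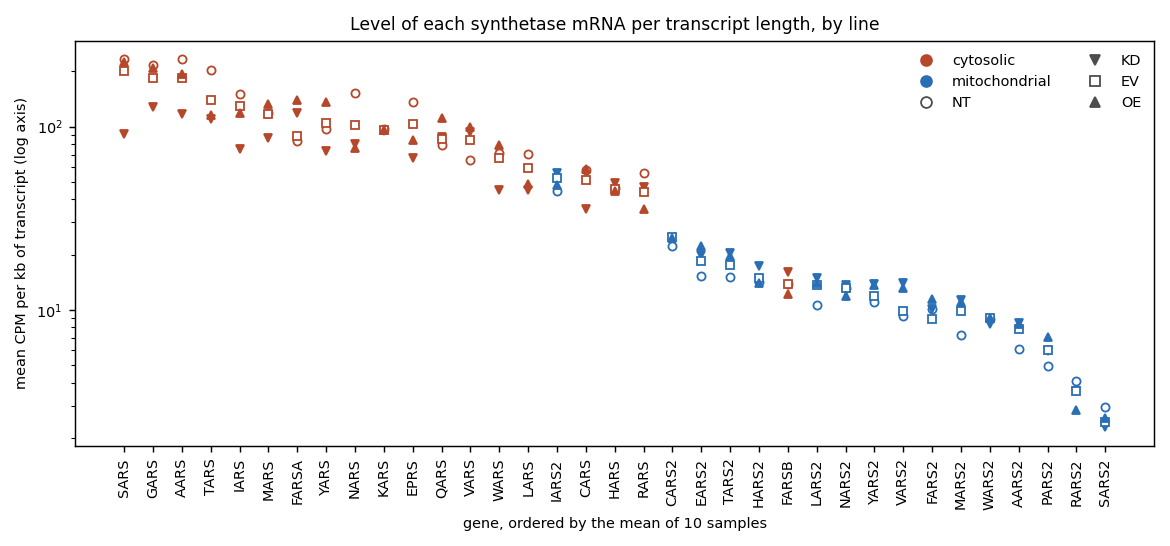
Mean level of each synthetase mRNA in CPM per kb of canonical transcript (log axis) in each of the 4 lines, with genes ordered by the mean of 10 samples. Cytosolic genes (red) fill the left and mitochondrial genes (blue) the right, with IARS2 at 50.5 CPM per kb and FARSB at 14.0 CPM per kb as the genes that cross over.

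Knockdown of CPT1A went with lower cytosolic and higher mitochondrial synthetase mRNA. In KD versus NT, 13 of 19 cytosolic genes fell, 2 rose and 4 were not called, while 7 of 16 mitochondrial genes rose, 0 fell and 9 were not called. Over all tested genes 29.1% were called, 16.4% higher and 12.8% lower. The median log2 fold change was -0.65 for the cytosolic and 0.30 for the mitochondrial genes, beside -0.02 for all tested genes. Summed over the genes of a set, the cytosolic level was 6491 and 6374 CPM in NT and 4138, 4381 and 4160 CPM in KD. The mitochondrial sum was 611 and 616 CPM in NT and 778, 771 and 760 CPM in KD. It was 714 and 696 CPM in EV and 732, 744 and 732 CPM in OE, so NT was the lowest line. The ratio of the sums was thus 10.62 and 10.35 in NT and 5.32, 5.68 and 5.47 in KD. The KD and NT samples did not overlap in 13 cytosolic genes lower and 5 higher in KD, and in 3 mitochondrial genes lower and 11 higher, where the same held for 35.7% of all tested genes lower and 34.9% higher.

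SARS, the serine enzyme, fell most. It was 449 and 444 CPM in NT and 168, 190 and 167 CPM in KD, against 384 and 382 CPM in EV and 432, 461 and 407 CPM in OE. The KD samples were below all 7 others, and the log2 fold change in KD versus NT was -1.35 ± 0.055 (SE; edgeR adjusted p = 7.11e-16). IARS, the isoleucine enzyme, was 676 and 673 CPM in NT and 323, 352 and 335 CPM in KD, a log2 fold change of -1.0 ± 0.045 (edgeR adjusted p = 3.39e-15). EPRS was 671 and 646 CPM in NT and 323, 321 and 343 CPM in KD, also -1.0 ± 0.045 on the log2 scale (edgeR adjusted p = 3.24e-15). For both genes the KD level was about 2.00-fold below NT with no overlap of samples. AARS followed with 815 and 784 CPM in NT and 387, 428 and 395 CPM in KD (log2 fold change -0.99 ± 0.053, edgeR adjusted p = 1.04e-13).

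TARS and NARS, for threonine and asparagine, fell as well, and both were also lower in EV than in NT and in OE than in EV. TARS was 554 and 536 CPM in NT, 285, 291 and 300.3 CPM in KD, 371 and 379 CPM in EV and 310, 306 and 311 CPM in OE. NARS was 432 and 409 CPM in NT, 222, 215 and 231 CPM in KD, 273 and 286 CPM in EV and 213, 197 and 221 CPM in OE. NT was highest and EV next in both genes, KD and OE were lowest, and the KD and OE samples of NARS overlapped. The log2 fold changes in KD versus NT were -0.90 ± 0.043 for TARS (edgeR adjusted p = 1.14e-14) and -0.92 ± 0.051 for NARS (1.48e-13).

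The remaining cytosolic genes that fell in KD did so by log2 0.25 to 0.76. They were GARS (-0.76), CARS (-0.72), WARS (-0.67), LARS (-0.65), MARS (-0.45), YARS (-0.39) and RARS (-0.25), for glycine, cysteine, tryptophan, leucine, methionine, tyrosine and arginine. LARS was 336 and 335 CPM in NT and 212, 211 and 220 CPM in KD, without overlap. MARS was 339 and 324 CPM in NT and 231, 258 and 236 CPM in KD, again without overlap. MARS shares 355 exonic bases with DDIT3 on the other strand, and DDIT3 was 84.6 and 79.6 CPM in NT and 10.3, 12.03 and 12.3 CPM in KD. Whether the counting used strand is not given in the sources used here, so reads from that stretch cannot be told apart. RARS was the call closest to the limit (edgeR adjusted p = 9.17e-05) and was no longer called without NT replicate 1, NT replicate 2, KD replicate 1, KD replicate 3, either EV replicate or OE replicate 1, with log2 values of -0.23 to -0.26. It was also not called in each arm alone (-0.25), without a filter (-0.24), with scaling by library size only (-0.22), with DESeq2 size factors (-0.24) or with an offset for GC content (-0.10, edgeR adjusted p = 0.077).

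FARSA and VARS rose against the others. FARSA was 147 and 154 CPM in NT, 217, 223 and 202 CPM in KD, 165 and 156 CPM in EV and 241, 269 and 246 CPM in OE. VARS, for valine, was 273 and 266 CPM in NT, 390, 404 and 361 CPM in KD, 348 and 347 CPM in EV and 401, 430 and 399 CPM in OE. Each KD sample was above each NT sample in both, and the log2 fold changes were 0.50 ± 0.055 for FARSA (edgeR adjusted p = 2.95e-08) and 0.51 ± 0.051 for VARS (5.88e-09). FARSB, QARS, HARS and KARS were not called, with log2 values of 0.20, 0.16, 0.10 and -0.04. With an offset for GC content in the fit FARSB was called higher (0.38, edgeR adjusted p = 2.9e-08), and FARSA had 0.40.

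Among the mitochondrial genes, MARS2 rose most. It was 22.7 and 21.3 CPM in NT and 34.8, 34.0 and 34.2 CPM in KD, a log2 fold change of 0.64 ± 0.067 (edgeR adjusted p = 1.33e-08). VARS2 was 33.6 and 32.8 CPM in NT and 51.1, 52.0 and 46.3 CPM in KD (0.58 ± 0.064, adjusted p = 3.21e-08). LARS2 was 50.2 and 51.6 CPM in NT and 71.6, 73.5 and 68.3 CPM in KD (0.48 ± 0.055, adjusted p = 6.18e-08). The KD samples of all 3 genes were above the NT samples. MARS2 was 29.4 and 29.9 CPM in EV and 34.7, 33.3 and 32.3 CPM in OE. LARS2 was 64.5 and 66.8 CPM in EV and 64.9, 69.15 and 66.0 CPM in OE. In both genes EV and OE were thus also above NT. VARS2 shares 62.981% of its annotated exonic bases with a long noncoding RNA on the same strand, and its counts are uncertain to that extent.

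AARS2, TARS2, EARS2 and IARS2 made up the other mitochondrial calls. AARS2 was 29.7 and 28.8 CPM in NT and 40.3, 40.1 and 42.0 CPM in KD (log2 0.48). TARS2 was 39.8 and 42.1 CPM in NT and 55.4, 55.3 and 55.3 CPM in KD (0.43). EARS2, for glutamate, was 80.3 and 77.9 CPM in NT and 103, 107 and 100.3 CPM in KD (0.38). IARS2 was 155 and 159 CPM in NT and 203, 192 and 198 CPM in KD (0.33), and none of the 4 overlapped between NT and KD. The means in EV and OE were 37.6 and 40.4 CPM for AARS2 and 47.6 and 53.7 CPM for TARS2. They were 95.9 and 115 CPM for EARS2 and 185 and 169 CPM for IARS2. In each of the called mitochondrial genes NT had the lowest mean of the 4 lines. AARS2 and EARS2 were not called without NT replicate 2 (0.46 and 0.36), nor IARS2 and TARS2 without NT replicate 1 (0.31 and 0.39).

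Of the 9 mitochondrial genes not called, YARS2, HARS2 and PARS2 were higher in KD at an adjusted p under 0.05 (log2 0.33, 0.28 and 0.27) and SARS2 was lower (-0.36). CARS2, NARS2, FARS2, WARS2 and RARS2 were between 0.13 and -0.19 and not past that limit. HARS and HARS2 lie head to head and share 108 exonic bases on opposite strands, and the proteins they encode are close paralogs, so counts can be split between them. SARS2 shares 48.16% of its exonic bases with a readthrough gene on the same strand. At 0.05, 10 of 16 mitochondrial genes were higher and 1 lower, and 4 of 19 cytosolic genes were higher and 13 lower, while 29.1% of all tested genes were higher and 28.4% lower (57.5% in all).

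**Figure D2:**
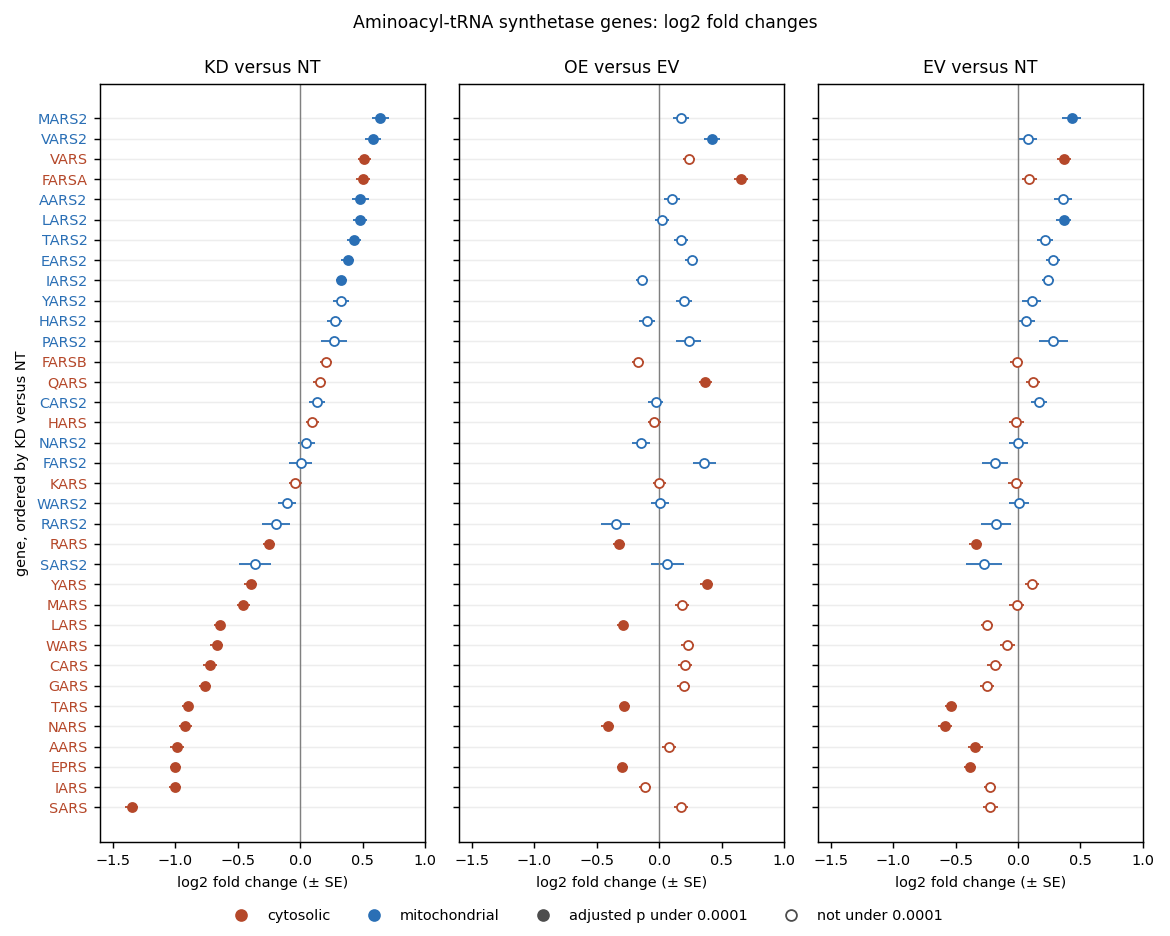
Log2 fold change ± SE of each synthetase gene in KD versus NT, OE versus EV and EV versus NT, with genes ordered by KD versus NT and filled points for adjusted p under 0.0001. In KD versus NT the cytosolic genes (red) run from -1.35 (SARS) to 0.51 (VARS) and the mitochondrial genes (blue) from -0.36 (SARS2) to 0.64 (MARS2).

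Read by amino acid, the cytosolic value lay below the mitochondrial one in 15 of 17 pairs in KD versus NT. In 6 pairs the cytosolic gene fell and the mitochondrial gene rose, namely AARS and AARS2, EPRS and EARS2, IARS and IARS2, LARS and LARS2, MARS and MARS2, and TARS and TARS2. The difference between the log2 fold changes of a pair was -1.47 for alanine, -1.38 for glutamate, -1.33 for isoleucine and for threonine, -1.13 for leucine and -1.10 for methionine. The exceptions in order were the subunit pairs of phenylalanine, where FARSA and FARSB were 0.50 and 0.20 above FARS2. Valine (-0.07) and arginine (-0.06) had the smallest differences, with VARS and VARS2 both higher and with RARS at -0.25 and RARS2 at -0.19. EPRS entered 2 pairs, with EARS2 and with PARS2. FARS2 also entered 2, with FARSA and with FARSB, so the 17 pairs are not independent of each other.

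**Figure D3:**
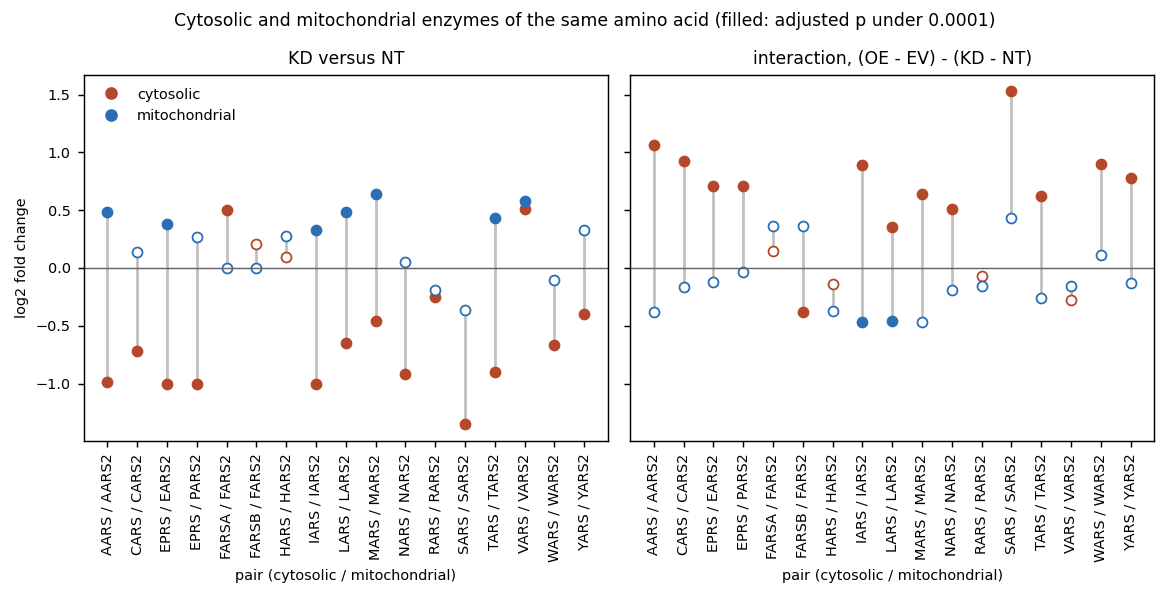
Log2 fold changes of the cytosolic (red) and mitochondrial (blue) gene of each amino acid in KD versus NT (left) and in the interaction (right), filled where the adjusted p was under 0.0001. In KD versus NT 6 of 17 pairs have a filled red point below 0 and a filled blue point above 0.

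Cytosolic genes fell in KD in both structural classes and inside and outside the complex. Of the 7 genes of the multisynthetase complex 5 fell and 0 rose (median log2 -0.45), and of the 12 outside it 8 fell and 2 rose (-0.69). Class I genes had 7 of 9 lower (median -0.45) and class II genes 5 of 9 (-0.76), with EPRS in both classes and counted in neither. Among the matched genes, the 7 with the CARE letters all fell (median -0.90), and of the 9 without them 4 fell, 1 rose and 4 were not called (median -0.04). The 4 that fell without a match were EPRS, RARS, SARS and WARS, and SARS had the lowest value of all. These splits are descriptions, and the difference between them was not tested. Over all tested genes 12.8% were called lower and 16.4% higher in KD versus NT. Calls among the other genes that carry the CARE letters were not counted.

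The other genes of the pathway, taken from lists, had the following calls in KD versus NT. Over all tested genes 16.4% were called higher and 12.8% lower in that comparison. All 4 tested cytosolic elongation factors fell, among them EEF2, which moves the ribosome along (12470 and 12250 CPM in NT, 7683, 8889 and 7626 CPM in KD, log2 -0.62). EEF1G, the fifth of that list, was listed at 0 in all samples. Of the scaffold proteins AIMP1 was 48.4 and 47.6 CPM in NT and 33.2, 30.7 and 34.3 CPM in KD, AIMP2 was 133.5 and 138.5 CPM in NT and 85.5, 98.0 and 89.0 CPM in KD, and both fell, while EEF1E1 was not called. Of the 6 genes of tRNA end processing, proofreading and export 1 rose, 2 fell and 3 were not called. XPOT, which exports tRNAs from the nucleus, was 821 and 788 CPM in NT and 452, 459 and 462 CPM in KD (-0.81). ELAC2, which trims the 3′ end of tRNA precursors, rose from 118 and 117 CPM in NT to 163, 170 and 156 CPM in KD (0.47).

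Genes of uncharged tRNA sensing and the integrated stress response were 6 lower, 3 higher and 2 not called of 11. Over all tested genes 12.8% were lower and 16.4% higher. Besides ATF4, the genes that fell were DDIT3, TRIB3, SESN2, ASNS and PPP1R15A. Their means in NT and KD were 82.1 and 11.5 CPM for DDIT3, 292 and 84.5 CPM for TRIB3 and 113 and 34.3 CPM for SESN2. They were 25.4 and 11.7 CPM for ASNS and 9.83 and 6.32 CPM for PPP1R15A. ATF4 was 1174 and 1160 CPM in NT, 464, 508 and 477 CPM in KD, 904 and 891 CPM in EV and 1115, 1219 and 1101 CPM in OE, so the KD samples were lowest. The genes that rose were the sensor EIF2AK4 (0.42), its co-activator GCN1 (0.56) and EIF2S1 (0.24), the subunit that the sensor phosphorylates. Of the 9 mitochondrial translation factors 1 rose (TUFM, 0.38), 1 fell (MTIF3, -0.48) and 7 were not called. Of the 4 genes of mitochondrial tRNA amidation and formylation 1 rose, the formyltransferase MTFMT (0.44).

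The OE cells differed less from their control, and their values moved with the GC content of the transcripts. In OE versus EV 3 of 19 cytosolic genes rose, 5 fell and 11 were not called, and 1 of 16 mitochondrial genes rose and 0 fell. Over all tested genes 21.9% were called, 11.6% higher and 10.3% lower. The medians were 0.08 for the cytosolic genes (-0.02 with scaling by library size only), 0.08 for the mitochondrial genes and -0.02 for all tested genes. The cytosolic sum was 5580 and 5548 CPM in EV and 5713, 5967 and 5566 CPM in OE, and the lines overlapped. Samples did not overlap in 9 cytosolic genes higher and 7 lower in OE and in 8 mitochondrial genes higher and 4 lower, beside 33.3% of all tested genes higher and 35.6% lower.

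FARSA rose most in OE, from 165 and 156 CPM in EV to 241, 269 and 246 CPM (log2 fold change 0.65 ± 0.055, edgeR adjusted p = 1.12e-09). YARS was 257 and 252 CPM in EV and 331, 349 and 316 CPM in OE (0.38 ± 0.052, adjusted p = 1.49e-06), whereas in the other arm it was 238 and 233 CPM in NT and 171, 192 and 175 CPM in KD. QARS, for glutamine, was 216 and 205 CPM in EV and 271, 286 and 258 CPM in OE (0.37). The OE samples of all 3 were above the EV samples. VARS2 rose among the mitochondrial genes, from 35.8 and 34.4 CPM in EV to 46.7, 49.0 and 46.0 CPM in OE (0.43 ± 0.064, adjusted p = 5.64e-06). EARS2 was 97.2 and 94.6 CPM in EV and 112, 122 and 112 CPM in OE (0.26, adjusted p = 0.000154). FARS2 was 16.3 and 13.5 CPM in EV and 19.5, 19.9 and 18.2 CPM in OE (0.36, adjusted p = 0.00226), above EV in each sample but not called.

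The cytosolic genes that fell in OE were NARS (-0.41 ± 0.051, edgeR adjusted p = 4.21e-07), RARS (-0.32), EPRS (-0.30), LARS (-0.29) and TARS (-0.28). EPRS was 501 and 508 CPM in EV and 402, 420 and 411 CPM in OE, and LARS was 280 and 285 CPM in EV and 237, 227 and 227 CPM in OE. These 5 also fell in KD versus NT. Of the 4 genes that fell most in KD, EPRS was thus called lower in OE, and SARS, IARS and AARS had log2 values of 0.18, -0.11 and 0.08 there and were not called. The number of cytosolic calls was 4 without EV replicate 1, 1 without EV replicate 2 (FARSA) and 5 without OE replicate 1, and VARS2 was not called without EV replicate 1 (0.47) or EV replicate 2 (0.40).

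GC content moved with these values. The 15 members higher in OE at an adjusted p under 0.05 had transcripts of 47.1% to 61.7% GC, and the 9 lower ones of 40.0% to 43.5% GC, so that the ranges did not meet. At that limit 25.6% of all tested genes passed as higher in OE and 26.4% as lower (52% in all), and the members counted 9 cytosolic genes higher and 7 lower and 6 mitochondrial genes higher and 2 lower. Across the 35 genes, which share the same libraries and are not independent, Pearson's r between GC content and the OE versus EV log2 fold change was 0.758, and across the 14343 tested genes with an annotated GC content it was 0.318. The same values for KD versus NT were 0.372 and 0.135. With an offset for GC content in the fit, 4 cytosolic genes were higher in OE (FARSA 0.46, YARS 0.33, QARS 0.25 and GARS 0.25) and 0 lower. NARS then had -0.19 (edgeR adjusted p = 0.000441), TARS -0.10, EPRS -0.10, RARS -0.08 and LARS -0.06, and VARS2 had 0.25 and was not called. EARS2 became the 1 mitochondrial gene called higher (0.27, edgeR adjusted p = 2.26e-05). For KD versus NT the offset gave 12 cytosolic genes lower and 3 higher and 8 mitochondrial genes higher and 0 lower, with medians of -0.52 and 0.28.

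**Figure D4:**
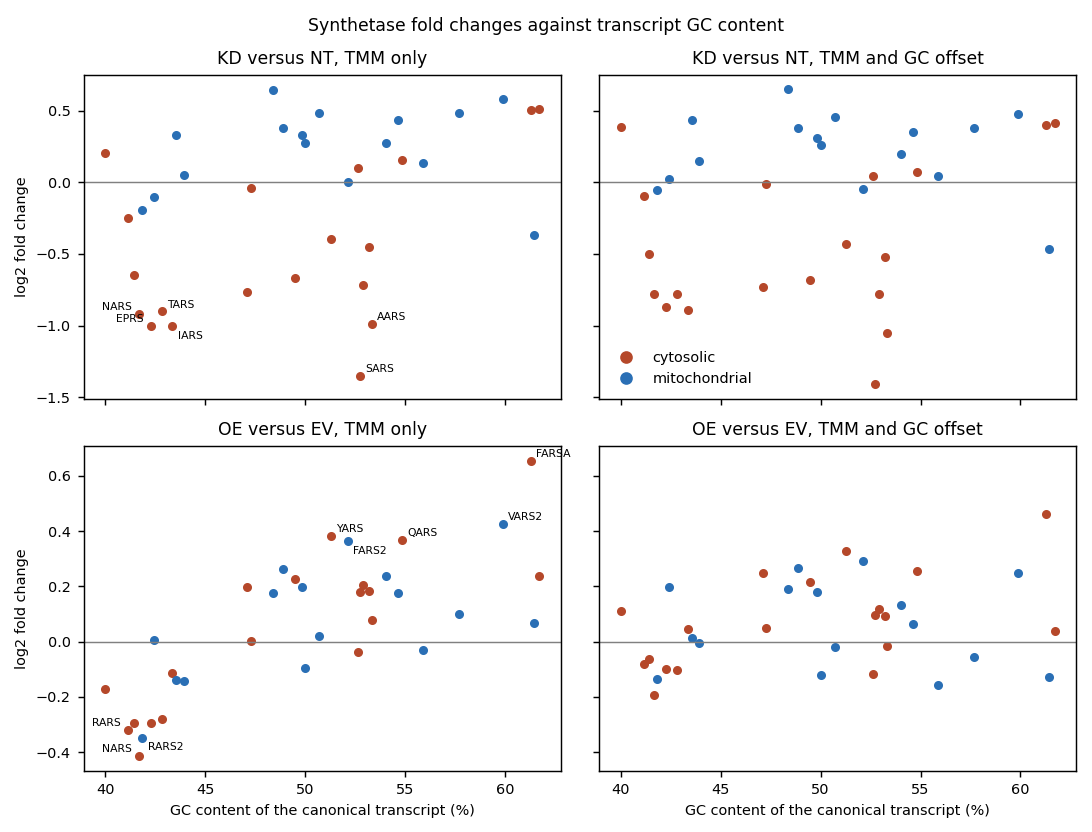
Log2 fold change of each synthetase gene against the GC content of its canonical transcript, in KD versus NT (top) and OE versus EV (bottom), with TMM scaling alone (left) and with an added GC offset (right). In OE versus EV Pearson's r across the 35 genes is 0.758 with TMM alone and 0.288 with the offset. For the 19 cytosolic genes it is 0.859 and 0.549. The offset was fitted to GC content in these same counts, so a lower r after it is largely built in. In KD versus NT the cytosolic genes (red) stay below most mitochondrial genes (blue).

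The median of neighbouring genes had the sign of the gene's own value in OE versus EV in 23 of 35 members and the opposite sign in 12. The same and opposite signs numbered 17 and 18 in KD versus NT, 24 and 11 in EV versus NT and 16 and 19 in the interaction. The share over all tested genes was not computed. Genes within 5 Mb of TARS had a median log2 fold change of -0.33 in OE versus EV, close to the -0.28 of TARS. For CARS, VARS and TARS2 the neighbour medians were 0.26, 0.23 and 0.21 beside gene values of 0.20, 0.24 and 0.17. YARS2 (0.20), MARS2 (0.17) and FARSB (-0.17) lay opposite to neighbour medians of -0.37, -0.24 and 0.17. In KD versus NT, with the neighbour median taken off, SARS was at -1.33, AARS at -1.12 and EPRS at -1.05.

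The interaction, (OE minus EV) minus (KD minus NT), is the comparison the study used for OE against KD. In it 12 of 19 cytosolic genes were higher, 1 was lower and 6 were not called, and 0 of 16 mitochondrial genes were higher and 2 lower. Over all tested genes 15.9% were called, 6.94% higher and 8.98% lower. The medians were 0.62 for the cytosolic, -0.16 for the mitochondrial and -0.02 for all tested genes. SARS had the largest value, 1.53 ± 0.079 (edgeR adjusted p = 1.82e-13), followed by AARS (1.07), GARS (0.96), CARS (0.92), WARS (0.90) and IARS (0.89). The lower genes were FARSB (-0.38), IARS2 (-0.47) and LARS2 (-0.46). At 0.05 the cytosolic genes counted 13 higher and 2 lower and the mitochondrial genes 1 higher and 6 lower, beside 20.3% of all tested genes higher and 24% lower (44.3% in all).

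Split by arm, the cytosolic median was -0.65 in KD versus NT and 0.08 in OE versus EV. Of the 12 cytosolic genes that were higher in the interaction, all fell in KD versus NT, and 1 of them, YARS, was called higher in OE versus EV. The interaction contains KD minus NT with its sign turned, so that overlap is partly built in. EPRS, LARS, NARS and TARS were called higher in the interaction and yet fell in OE versus EV, since they fell by more in KD versus NT. Set directly against KD, with neither control, OE had 10 cytosolic genes higher and 2 lower, and 0 mitochondrial genes higher and 2 lower, where 31.9% of all tested genes were called, 15.5% higher and 16.4% lower. The cytosolic median was 0.32 in that comparison and 0.62 in the interaction. SARS was 1.31 and EPRS 0.32 in OE versus KD, but TARS (0.08), LARS (0.10) and NARS (-0.08) were not called. In EV versus NT these 3 were at -0.54, -0.25 and -0.59, and that difference between the controls is part of the interaction. RARS (-0.41) and FARSB (-0.39) were the cytosolic genes lower in OE than in KD, and IARS2 (-0.23) and HARS2 (-0.31) the mitochondrial ones.

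FARSB, LARS and LARS2 were close to the limit in the interaction. FARSB lost its call without any one of 9 of the 10 libraries, all but KD replicate 2, with values of -0.35 to -0.40. LARS2 lost it without either NT, either EV, KD replicate 1, OE replicate 1 or OE replicate 3 (-0.44 to -0.48), and IARS2 without EV replicate 1 (-0.44). LARS was not called without NT replicate 1 (0.35), NT replicate 2 (0.35), KD replicate 1 (0.36), either EV replicate (0.36), OE replicate 1 (0.33) or OE replicate 3 (0.36), and NARS was not without NT replicate 1 (0.47) or EV replicate 1 (0.49). With library size only LARS (0.22, edgeR adjusted p = 0.00539) and NARS (0.37, 0.000581) were not called. With the GC offset FARSB was not called (-0.27, edgeR adjusted p = 0.00146), and VARS was called lower (-0.37, 9.4e-06).

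The control lines themselves differed, in the direction of KD. In EV versus NT 5 of 19 cytosolic genes were lower and 1 higher, and 2 of 16 mitochondrial genes were higher and 0 lower, where 8.16% of all tested genes were called, 5.25% higher and 2.91% lower. The lower genes were NARS (-0.59 ± 0.056, edgeR adjusted p = 1.87e-08), TARS (-0.54), EPRS (-0.38), AARS (-0.34) and RARS (-0.34), and the higher genes were VARS (0.37), MARS2 (0.43) and LARS2 (0.37). At 0.05 the counts were 1 cytosolic gene higher and 10 lower and 6 mitochondrial genes higher and 0 lower, beside 18.5% of all tested genes higher and 15.5% lower (34.1% in all). The ratio of cytosolic to mitochondrial sums was 7.82 and 7.97 in EV and 7.81, 8.02 and 7.61 in OE, between the values of NT and KD. EV and OE overlapped in that ratio, and no other pair of lines did. This difference enters the interaction in full, and KD and EV are each compared with the same 2 NT samples, so their values are not independent.

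The EV versus NT calls were sensitive to single libraries and to GC content. With the GC offset RARS (-0.20, edgeR adjusted p = 0.00392) and VARS (0.26, 0.000111) were not called. Without NT replicate 1, EV replicate 1 or EV replicate 2 there were 2 cytosolic calls, and without NT replicate 2 there were 3. The mitochondrial count was 0 without either NT, either EV or OE replicate 1, 1 without KD replicate 1, KD replicate 3 or OE replicate 3, and 5 without KD replicate 2.

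**Figure D5:**
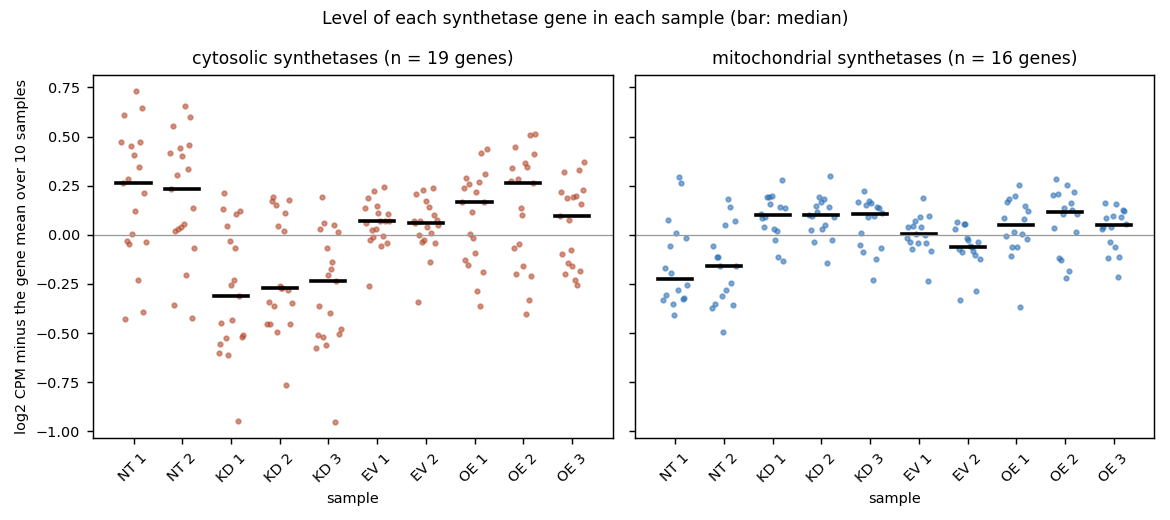
Log2 CPM of each synthetase gene minus its mean over 10 samples (points), with the median over genes (bar), for each sample and each set. The cytosolic median is 0.265 and 0.232 in NT and -0.31, -0.27 and -0.24 in KD, and the mitochondrial median is -0.23 and -0.16 in NT and 0.10 in KD. The mitochondrial median is 0.002 and -0.06 in EV and 0.048, 0.117 and 0.048 in OE.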

How the data were processed

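RNA of 10 samples was sequenced as read pairs. Per the study's methods, the authors trimmed adapters with BBDuk, discarded short reads and aligned and counted with STAR 2.6.0a against the Ensembl transcriptome of hg38. The deposited values are whole-number counts per gene symbol, not normalized. The strand setting and the handling of reads that map to several genes are not given in the sources used here. The members and lists were chosen with earlier results of these data known.

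After filterByExpr and TMM scaling, edgeR 4.0.16 under R 4.3.3 was used for quasi-likelihood F tests, with 1 mean per line and all 10 samples in the fit. The study used limma, which is tried as an alternative. Benjamini-Hochberg adjustment ran over 17230 genes per comparison, and the common biological coefficient of variation was 0.0446. Levels are TMM-scaled CPM, and 3 counts correspond to 0.0995 to 0.136 CPM. Positions, exon overlaps, canonical transcript length and GC content came from GENCODE on GRCh38, where 18 members matched by symbol and 17 by an older symbol, and GC content was found for 83.2% of tested genes. Replicates of a line differed by more than sampling noise. The fits were also run on simulated counts with independent replicates and log2 changes of 1 planted in KD only. Most member changes were smaller, and the samples may be technical repeats, so that run does not settle how reliable these calls are.

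Named members were, per compartment, the 4 with the smallest p in KD versus NT and the 3 in OE versus EV, those called against their compartment, and pairs called in opposite directions; all could be named. One listed gene is not reported here. Alternatives were other scaling, filters and tools (DESeq2 1.42.0, limma 3.58.1), a replicate block, each arm alone, a GC offset, removal of the neighbour median and leaving out each sample.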

Additional observations from a re-analysis of the deposited data

How the results depend on the processing

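The counts below are members called at an adjusted p under 0.0001 in edgeR's quasi-likelihood test unless a setting says otherwise. In KD versus NT the 15 cytosolic calls stayed between 14 and 15 and the 7 mitochondrial calls between 5 and 8 when single samples were left out; a limit of 0.05 gave 11 mitochondrial calls, and a log2 fold change of at least 1 left 3 and 0. In OE versus EV the 8 cytosolic calls became 4 with the GC offset, 16 at 0.05, 0 at log2 of at least 1 and 1 to 11 with a sample left out, with 3 higher and 5 lower under TMM, 3 and 7 under library size only and 4 and 0 with the GC offset. The single mitochondrial call became 2 with DESeq2 size factors, no filter, the DESeq2 Wald test, each arm alone or the replicate block, 0 with library size only or log2 of at least 1, 8 at 0.05, and 0 to 2 with a sample left out. In the interaction the 13 cytosolic calls were 10 to 13 with a sample left out and 2 at log2 of at least 1, and the 2 mitochondrial calls were 4 with the GC offset, 7 at 0.05, 0 at log2 of at least 1 and 0 to 3 with a sample left out. In EV versus NT the 6 cytosolic calls were 11 at 0.05, 0 at log2 of at least 1 and 2 to 9 with a sample left out, and the 2 mitochondrial calls were 1 with library size only, with 10 counts in every sample or with limma-voom, 4 with the GC offset, 6 at 0.05, 0 at log2 of at least 1 and 0 to 5 with a sample left out. Library size only moved the median of all genes to -0.12 in OE versus EV and -0.15 in the interaction.

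With the GC offset the sign turned for FARSB (0.11), IARS (0.045) and IARS2 (0.013) in OE versus EV, none of them called. With the neighbour median taken off it turned for CARS (-0.051), TARS (0.049) and TARS2 (-0.034) in OE versus EV; the cause was not tested. The mean residual r was 0.005 over 13 same-numbered and -0.003 over 24 other pairs of samples. In NT and in EV the residuals of the replicates mirror each other (r -1), so pairs with these lines say little. Between KD and OE it was 0.007, 0.171 and 0.084 for the same number and -0.141 to 0.079 for other numbers. Whether replicate numbers pair the samples is therefore not settled. The replicate block gave 9 cytosolic calls in OE versus EV and left the other counts of calls as they were, except the mitochondrial one above. The lowest count of any member in any sample was 110 (SARS2), so counting noise weighs most on that gene.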
